A study of Mus musculus with 9 samples.

Results

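The 35 genes described here encode the proteins that bring glucose and lactate into a heart muscle cell, split glucose to pyruvate, store and release it as glycogen, and pass pyruvate into the mitochondria. They were chosen by symbol, with no threshold on their values, although earlier results of these data were known when the list was drawn up. Their identifiers were looked up among the 55401 genes of the count table. All 35 symbols were found. Aldoa matched 2 identifiers, of which the one with nearly all the counts is used and the other stood between 0 and 0.382 CPM (counts scaled to the effective library size). All 35 genes had enough counts to be tested.

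Glycolysis turns glucose into pyruvate in the cytosol and yields ATP without oxygen. Its committed step, phosphofructokinase, is tuned by fructose 2,6-bisphosphate, which the bifunctional PFKFB enzymes make and break down. The adult heart draws most of its ATP from fatty acids and burns glucose and lactate beside them, and the pyruvate dehydrogenase complex, held in check by the PDK kinases, decides how much pyruvate is oxidised. Many steps have isozymes, one typical of muscle and others of brain, liver or growing tissue, so the mix of isozymes is often read beside the levels.

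Poly(A) RNA of mouse heart was sequenced in 9 libraries, and all mice were of the C57BL/6 strain. Ctrl hearts (3 libraries) had PBS, a buffered saline, as their treatment. AngII hearts (3 libraries) had angiotensin II, the vasoconstrictor hormone used to provoke hypertension and cardiac hypertrophy, and Kmo_AngII hearts (3 libraries) carry the same treatment entry plus the letters Kmo, which no label explains. Titles open with WC, WA or KKA, letters that are unexplained too and split the libraries another way. The WC titles are Ctrl replicate 1 with AngII replicates 1 and 2, the WA titles are Ctrl replicates 2 and 3 with AngII replicate 3, and KKA is the same set of 3 libraries as Kmo_AngII. The sources used here do not give age, angiotensin dose, duration or the part of the heart sampled. Whether the libraries of a group are separate animals is not labelled, so p-values measure the spread between these libraries, which may be technical.

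The total count per library lay between 56827533 and 73194268, and mitochondrially encoded genes took between 30.3% and 55.5% of it. The 35 genes together took between 0.257% of the counts, in Kmo_AngII replicate 3, and 1.09%, in Kmo_AngII replicate 1. Heart muscle markers were abundant in every library, at a summed level of 17400 to 48700 CPM, while the fast skeletal myosin genes Myh1, Myh2 and Myh4 stood at 0 to 0.178 CPM. Kmo_AngII replicate 3 stood apart from the other libraries, with a summed fibroblast marker level of 2100 CPM against 505 to 904 in the other 8 and the atrial light chains Myl7 and Myl4 at 469 and 385 CPM. Ctrl replicate 2 was the only other library with Myl7 above 1 CPM, at 47.7 CPM. The summed adipocyte markers were highest in the same libraries, at 29.1 CPM in Kmo_AngII replicate 3 and 4.82 CPM in Ctrl replicate 2. The gene Kmo itself stood between 0.247 and 1.26 CPM in all 9 libraries.

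The promoters of 4 of the genes are shown because they belong to the members with the highest differences between the WA and WC libraries and to the second lactate carrier, whose levels overlapped between these libraries. Each is the 250 bases before the start site listed by RefSeq on GRCm38.p6, read 5′ to 3′ on the gene's strand: Slc16a1 at chr3:104638414-104638663 (plus), Slc16a3 at chr11:120948817-120949066 (plus), Pgk1 at chrX:106186850-106187099 (plus) and Pdha1 at chrX:160138431-160138680 (minus). Capitals mark the letters ACGTG, the core of the hypoxia response element, on either strand, and the E-box CACGTG, which holds ACGTG on both strands.
Slc16a1 promoter: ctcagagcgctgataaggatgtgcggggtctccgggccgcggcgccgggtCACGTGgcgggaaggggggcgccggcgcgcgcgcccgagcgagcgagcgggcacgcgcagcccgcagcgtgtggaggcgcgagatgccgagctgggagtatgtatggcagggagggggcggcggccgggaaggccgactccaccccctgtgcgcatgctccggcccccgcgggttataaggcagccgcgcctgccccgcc
Slc16a3 promoter: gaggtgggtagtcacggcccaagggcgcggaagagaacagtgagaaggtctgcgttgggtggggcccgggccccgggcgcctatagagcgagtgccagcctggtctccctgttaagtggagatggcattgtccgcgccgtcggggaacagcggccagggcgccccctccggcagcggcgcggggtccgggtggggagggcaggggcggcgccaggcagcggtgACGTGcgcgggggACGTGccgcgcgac
Pgk1 promoter: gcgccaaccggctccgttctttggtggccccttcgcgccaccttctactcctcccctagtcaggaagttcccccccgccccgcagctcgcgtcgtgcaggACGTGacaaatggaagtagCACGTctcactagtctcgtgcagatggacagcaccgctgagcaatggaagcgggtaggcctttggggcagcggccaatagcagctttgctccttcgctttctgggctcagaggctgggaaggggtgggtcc
Pdha1 promoter: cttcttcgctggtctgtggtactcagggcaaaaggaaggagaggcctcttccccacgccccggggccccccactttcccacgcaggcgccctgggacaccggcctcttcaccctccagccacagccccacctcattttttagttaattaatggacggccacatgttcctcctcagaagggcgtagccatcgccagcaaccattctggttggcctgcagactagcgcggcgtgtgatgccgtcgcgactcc
Slc16a1 held 1 CACGTG, from position -200 to -195 relative to the start. Slc16a3 held ACGTG from -27 to -23 and from -14 to -10. Pgk1 held it from -150 to -146 and, on the other strand, from -131 to -127. Pdha1 held neither. Of the 35 genes, 34 had a start in the RefSeq table and Slc2a4 had none. Over their 53 listed starts, 21 windows held ACGTG, against 16.6% of the 32851 windows of the same length in the table, 6 held CACGTG, against 6.02%, and 2 held AAGGTCA, the core site of oestrogen-related receptors, against 4.08%. Windows of the same gene can overlap, as for Aldoa, so a site can be counted more than once. By gene, 17 of the 34 held ACGTG at 1 start or more, and the share of all genes was not computed. A match is a run of letters and not a measured site, and the counts do not tell which start was used.

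Levels can be compared between genes only per length, so mean CPM over the 9 libraries was divided by the length of the annotated exons in kilobases. That length joins the exons of every annotated transcript of a gene, 4133 bases for Gapdh and 840 for Pgam2. It can exceed the length of the transcript present, which lowers the value, so the ranking is approximate. On that scale the muscle forms led. Aldoa, the muscle aldolase, stood at 532 CPM per kb, Pgam2, the muscle phosphoglycerate mutase, at 390, Ldhb, the heart form of lactate dehydrogenase, at 381, and Eno3, the muscle enolase, at 295. Pygm, muscle glycogen phosphorylase, stood at 118, Pdha1, the catalytic subunit gene of pyruvate dehydrogenase, at 85.5, and Slc2a4, the insulin-responsive glucose carrier GLUT4, at 49.0. The insulin-independent carrier Slc2a1 stood at 2.75, the lactate exporter Slc16a3 at 0.497, liver phosphorylase Pygl at 0.554, neuronal enolase Eno2 at 0.621 and the brain aldolase Aldoc at 0.142. Gapdh, usually among the most abundant of these transcripts, stood at 26.4 CPM per kb, and a processed copy of it, Gapdh-ps15, held 838 to 6210 reads per library. Because the counting could split reads between near-identical copies, the values of Gapdh, Eno1, Pgk1 and Pgam1 are uncertain.

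**Figure D1:**
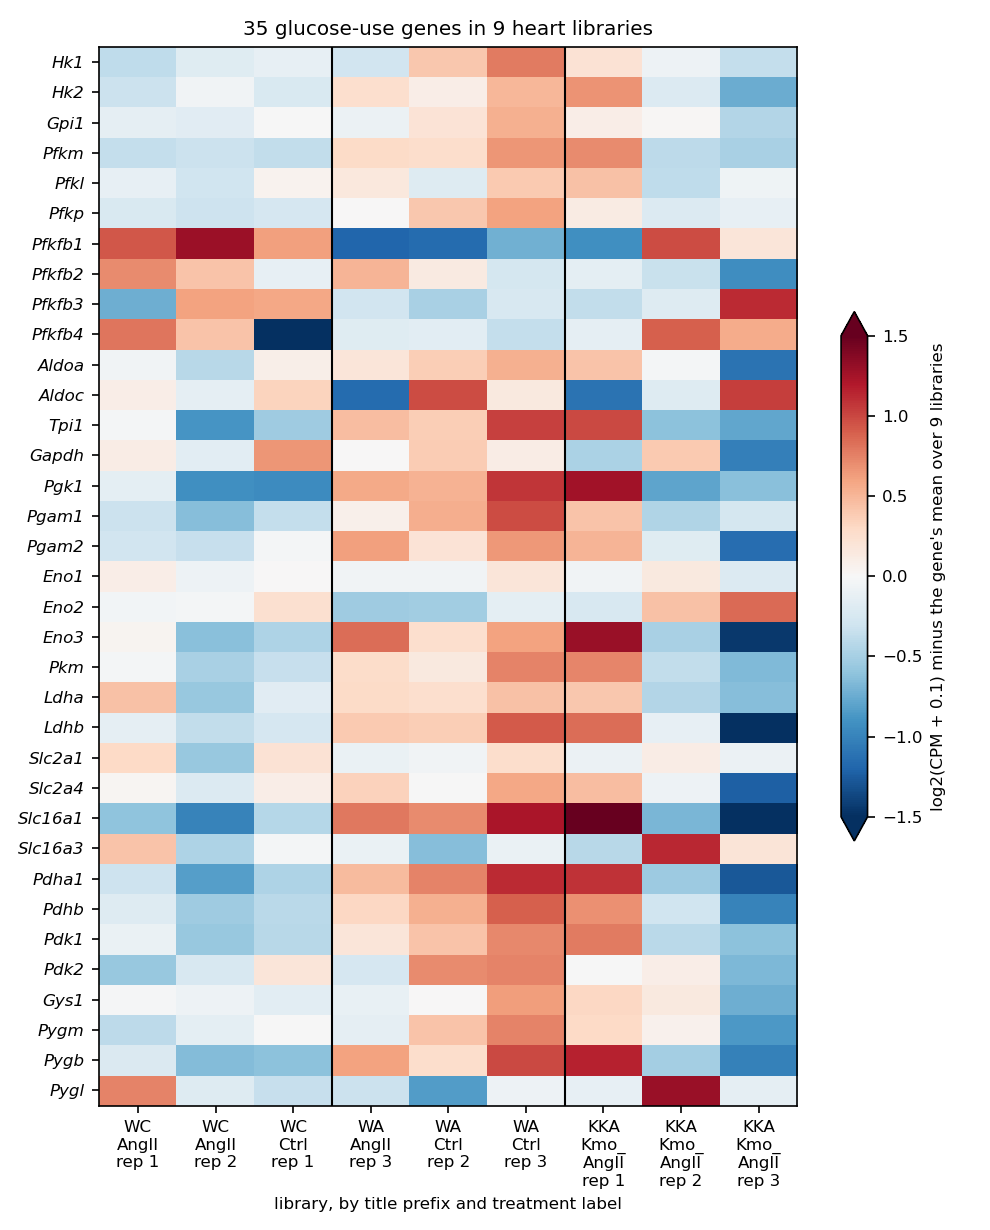
Level of each of the 35 genes (rows) in each of the 9 libraries (columns, ordered by title prefix and then by treatment label), as log2(CPM + 0.1) minus the gene's own mean, with colours limited to 1.5 in each direction. Most rows are red in the 3 WA libraries and in Kmo_AngII replicate 1 and blue in the WC libraries and in Kmo_AngII replicate 3, and Pfkfb1 has the opposite pattern.

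The calls among the 35 genes came from the comparison by title letters, in a fit of the 6 WA and WC libraries alone. This fit was added because the KKA libraries were known from earlier results to differ from each other. The fit of all 9 libraries, described below, called 0% of the 19091 genes. When only the 6 WA and WC libraries were fitted, 14 of the 35 genes passed an adjusted p of 0.05 in edgeR's quasi-likelihood test, against 13.3% of the 18111 genes tested. Of these, 13 were higher in WA, against 8.06% of all genes, and 1, Pfkfb1, was lower, against 5.25%. The difference was positive for 27 of the 35 genes, with a median log2 difference of 0.50, while the median over all genes was -0.01. The 3 WA libraries all lay above the 3 WC libraries for 16 of the 35 genes, against 16.5% of the 19091 genes tested with 9 libraries, and all below them for 2, against 17.2%. The number of genes that passed depended on single libraries: leaving out Ctrl replicate 1 gave 5, leaving out Ctrl replicate 2 gave 8, Ctrl replicate 3 gave 4 and AngII replicate 2 gave 3. Slc16a1, Pdha1 and Pfkfb1 passed under each of these omissions. With the treatment label as a covariate 11 passed, and Pfkp, Pgam2 and Ldhb did not (adjusted p = 0.0817, 0.0582 and 0.0582). With the total count as the only scaling, Pfkfb1 alone passed and the median over all genes moved to -0.32.

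**Figure D2:**
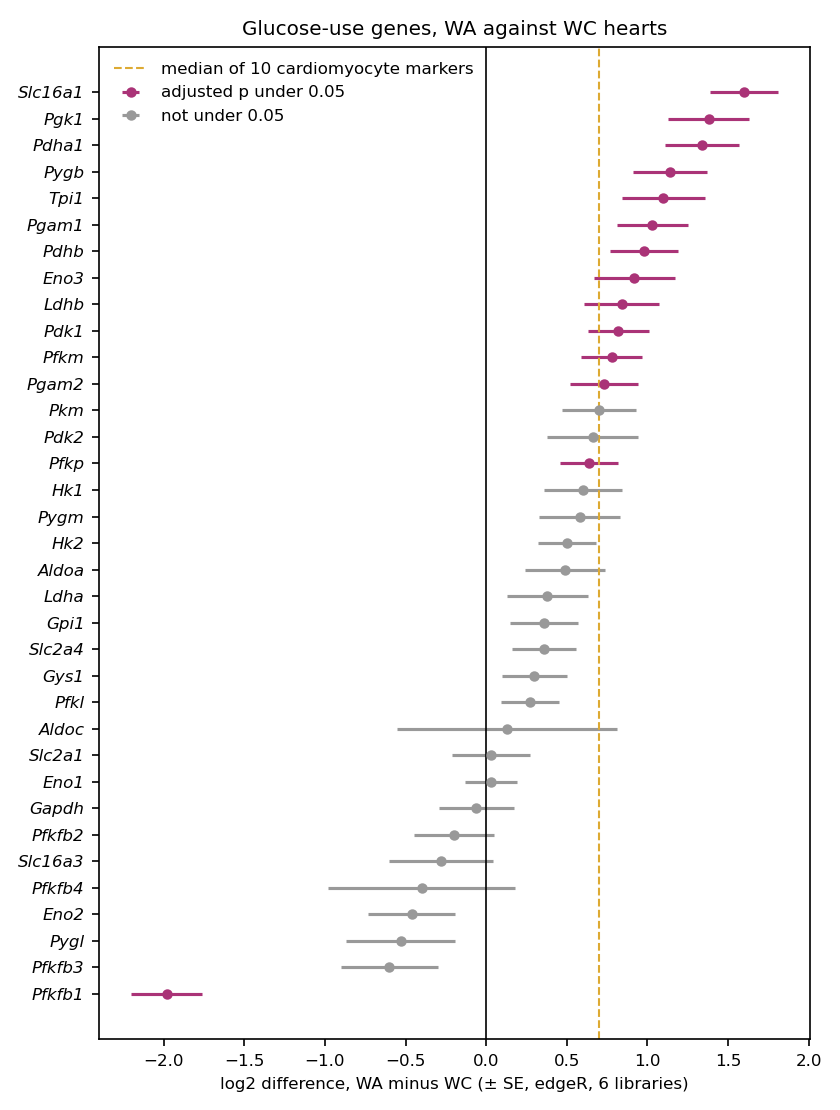
Log2 difference of each of the 35 genes between the WA and the WC libraries (points) with its standard error (bars), from the fit of 6 libraries. Purple marks the 14 genes with an adjusted p under 0.05, grey the others, and the dashed line marks the median difference of 10 heart muscle markers, 0.70.

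Among the carriers, Slc16a1, which encodes the lactate and pyruvate carrier MCT1, had the highest difference. It stood at 31.5, 27.9 and 21.1 CPM in the WC libraries (Ctrl replicate 1, AngII replicates 1 and 2) and at 69.5, 99.4 and 73.2 CPM in the WA libraries (Ctrl replicates 2 and 3, AngII replicate 3). The groups did not overlap, and the difference was 3.03-fold, or 1.60 ± 0.21 on the log2 scale (adjusted p = 0.00242, edgeR). Slc16a3, the low-affinity lactate carrier MCT4, stood at 2.41, 3.33 and 1.75 CPM in WC and at 1.55, 2.29 and 2.29 CPM in WA, overlapping ranges with a log2 difference of -0.28 ± 0.32 (adjusted p = 0.618). Neither glucose carrier passed the test. Slc2a4 had 174, 166 and 140 CPM in WC and 161, 242 and 206 CPM in WA (0.36 ± 0.20, adjusted p = 0.274), and Slc2a1 had 6.41 to 11.7 CPM in WC and 8.90 to 11.4 CPM in WA.

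Among the upper steps of glycolysis, Pfkm and Pfkp rose in WA. Pfkm, the muscle phosphofructokinase, stood at 180.2, 182.2 and 185.9 CPM in the WC libraries and at 281, 370 and 285 CPM in the WA libraries, a narrow low group and a higher one that did not overlap. Its log2 difference was 0.78 ± 0.19 (adjusted p = 0.0230), and Pfkp, the platelet form, followed with 0.64 ± 0.18 (adjusted p = 0.0388), a call lost with the treatment label as a covariate. Pfkl, the liver form, stood at 28.5 to 36.3 CPM in WC and 30.6 to 46.0 CPM in WA and did not pass. The hexokinases, which trap glucose in the cell by phosphorylation, did not pass either. Hk2, the insulin-responsive form, had a log2 difference of 0.50 ± 0.18 (adjusted p = 0.0821) and groups that did not overlap, and Hk1 had 0.60 ± 0.24 (adjusted p = 0.1202). DESeq2 called Hk2 in the same libraries, and Hk1 passed in edgeR without AngII replicate 3.

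Of the 4 PFKFB genes, which set the level of fructose 2,6-bisphosphate, 1 passed the test. Pfkfb1, the form typical of liver and skeletal muscle, stood at 25.0, 31.3 and 39.9 CPM in the WC libraries and at 7.30, 9.85 and 7.08 CPM in the WA libraries. The groups lay far apart, and the gene was 3.94-fold lower in WA (log2 difference -1.98 ± 0.22, adjusted p = 0.00134), the smallest p among the 35. Pfkfb2, the heart form that is activated by insulin signalling, stood at 65.4 to 112 CPM in WA and 72.2 to 128 CPM in WC. Pfkfb3, the inducible form, had a log2 difference of -0.60 ± 0.30 (adjusted p = 0.220), and Pfkfb4 had -0.40 ± 0.58 (adjusted p = 0.704). Both had ranges that overlapped between the groups.

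Below the split of the sugar, 6 genes rose in WA. Pgk1, phosphoglycerate kinase, one of the steps that makes ATP, stood at 30.7, 53.1 and 31.1 CPM in WC and at 84.7, 124 and 87.6 CPM in WA. It was 2.60-fold higher in WA (1.38 ± 0.25 on the log2 scale, adjusted p = 0.00681), with no overlap. Tpi1, triosephosphate isomerase, had 107, 152 and 83.9 CPM in WC and 201, 317 and 214 CPM in WA (1.10 ± 0.26, adjusted p = 0.0185). Every WA value of both genes lay above every WC value. Pgam1, the widely expressed phosphoglycerate mutase, rose by 1.03 ± 0.22 (adjusted p = 0.0130), and Pgam2, the muscle form, by 0.73 ± 0.21 (adjusted p = 0.0430). Ldhb, the form of lactate dehydrogenase abundant in heart, rose by 0.84 ± 0.23 (adjusted p = 0.0329). The calls of Pgam2 and Ldhb were lost with the treatment label as a covariate. Its partner Ldha, the form abundant in skeletal muscle, had 0.38 ± 0.25 (adjusted p = 0.352), and 0.71 without AngII replicate 1.

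Of the 3 enolases, 1 passed. Eno3 stood at 320, 454 and 286 CPM in WC and at 529, 670 and 790 CPM in WA, and rose by 0.92 ± 0.25 (adjusted p = 0.0332). Eno1, the form found in most tissues, was nearly level over all 9 libraries, between 64.4 and 84.4 CPM, with a log2 difference of 0.03 ± 0.16 (adjusted p = 0.922) whose sign turns with the total count as the only scaling. Eno2 stood at 3.31, 2.70 and 2.74 CPM in WC and at 1.91, 2.50 and 1.89 CPM in WA, lower in all 3 WA libraries, with a difference that did not pass (-0.46 ± 0.27, adjusted p = 0.284). Gapdh had 164, 112 and 93.1 CPM in WC and 136, 112 and 104 CPM in WA, overlapping ranges at the step just before Pgk1. Its copy Gapdh-ps15 stood at 43.2, 33.9 and 27.5 CPM in WC and at 79.2, 78.1 and 61.0 CPM in WA, with no overlap. Pkm, pyruvate kinase, was higher in all 3 WA libraries without passing the test (0.70 ± 0.23, adjusted p = 0.0638), and so was Aldoa (0.49 ± 0.25, adjusted p = 0.217).

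**Figure D3:**
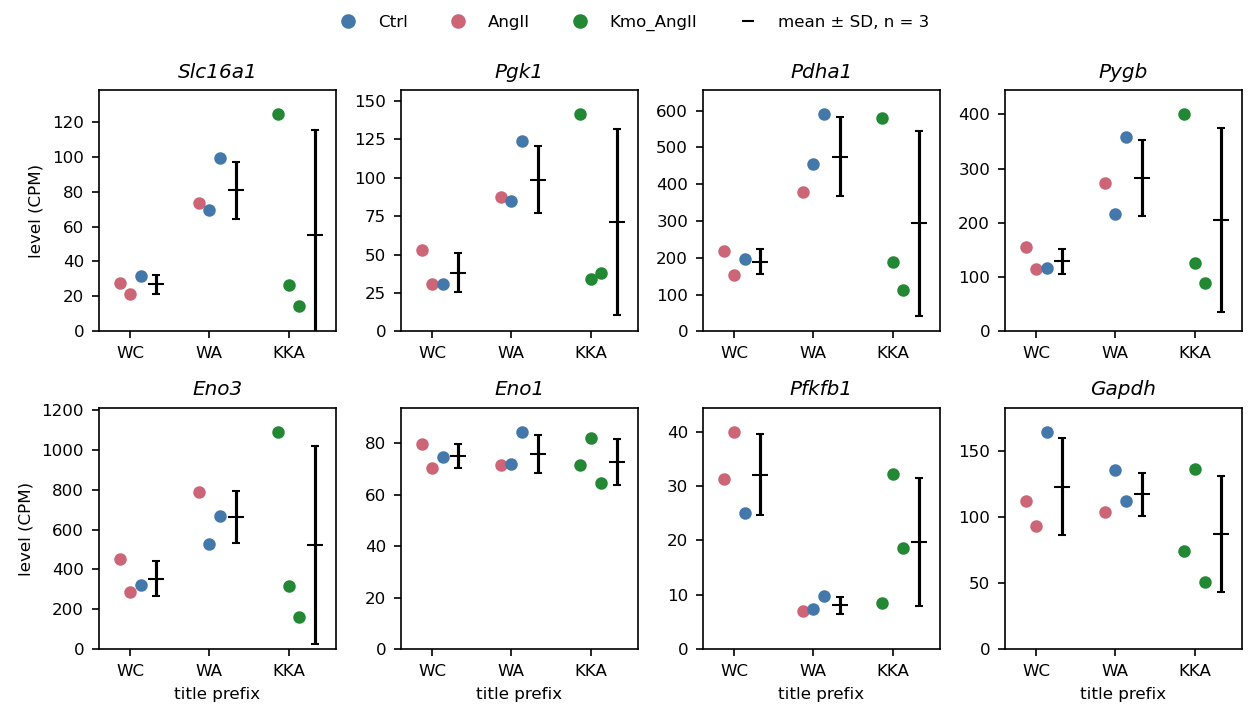
Level in CPM of 8 of the genes in each library (points, coloured by treatment label), grouped by title prefix, with the mean and standard deviation of the 3 libraries beside them (bars are drawn down to 0 where they would pass below it). Slc16a1, Pgk1, Pdha1, Pygb and Eno3 are higher and Pfkfb1 is lower in all 3 WA than in all 3 WC libraries, Eno1 is level, and in 5 of the 8 panels the highest KKA point is Kmo_AngII replicate 1, apart from the other two.

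At the entry to the mitochondria, both measured subunit genes of pyruvate dehydrogenase rose in WA. Pdha1 stood at 197, 219 and 153 CPM in WC and at 456, 590 and 379 CPM in WA, 2.52-fold higher without overlap (1.34 ± 0.23, adjusted p = 0.00626). Pdhb rose by 0.98 ± 0.21 (adjusted p = 0.0136). Pdk1, a kinase that switches the complex off, rose as well, by 0.82 ± 0.19 (adjusted p = 0.0182), and Pdk2, another of these kinases, had 0.66 ± 0.28 (adjusted p = 0.145) with overlapping groups. Transcripts of the enzyme subunits and of the kinase Pdk1 were thus higher in the same libraries, as were those of the kinase Pdk4, given below. Protein and enzyme activity were not measured.

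In the glycogen branch, the phosphorylase Pygb, the form typical of brain and also present in heart, rose in WA. It stood at 117, 155 and 115 CPM in WC and at 217, 358 and 275 CPM in WA, a difference of 1.14 ± 0.23 (adjusted p = 0.0108). Pygm, the muscle form, had 0.58 ± 0.25 (adjusted p = 0.143) and overlapping groups, Pygl had -0.53 ± 0.34 (adjusted p = 0.328) and -0.08 without AngII replicate 1, and Gys1, muscle glycogen synthase, had 0.30 ± 0.20 (adjusted p = 0.344). In CPM per kb, Pygb averaged 42.8 over the 9 libraries and Pygm 118.

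Other genes of the same metabolism were examined as lists in the fit of the 6 WA and WC libraries, in which 8.06% of all genes were called higher and 5.25% lower. In the glycogen list, 9 of 25 tested genes rose in WA and 4 fell, with a median log2 difference of 0.38. Those with the smallest p were Phkg1, a catalytic subunit of phosphorylase kinase (-2.06 ± 0.26), Ppp1r3c, which brings a phosphatase to glycogen (1.71 ± 0.24), Ugp2, which makes UDP-glucose (1.40 ± 0.20), and Gbe1, the branching enzyme (1.47 ± 0.24). Gyg, the primer of glycogen, rose by 1.36 ± 0.24. The regulatory subunit Phka2 and the testis and liver form Phkg2 fell beside Phkg1, by 0.95 and 0.74 on the log2 scale. All of these had an adjusted p of 0.0180 or less.

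In the list of the pyruvate dehydrogenase complex and the pyruvate carriers outside the 35 genes, 5 of 13 tested genes rose and none fell, with a median of 0.61. Dlat, the acetyltransferase core, rose by 1.31 ± 0.21 (adjusted p = 0.00456), Pdhx, which anchors its last subunit, by 1.21 ± 0.22 (adjusted p = 0.00766), and Mpc1, a subunit of the mitochondrial pyruvate carrier, by 0.90 ± 0.20 (adjusted p = 0.0144). Pdk4, the kinase induced by fasting and fatty acids, stood at 14.5, 49.6 and 33.6 CPM in WC and at 82.6, 107 and 135 CPM in WA (1.74 ± 0.42, adjusted p = 0.0345).

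The list of other isozymes and carriers had 3 of 17 tested genes higher and 5 lower, with a median of -0.08. Bpgm, the red cell bisphosphoglycerate mutase, which the red cell list also holds, fell by 1.88 on the log2 scale, Slc2a3, the glucose carrier of neurons and blood cells, by 1.27, and Adpgk, an ADP-dependent kinase of the first step, by 0.66. Of 32 regulators of glucose use, 5 rose and 2 fell, among them Prkaa2, a catalytic subunit of AMP-activated kinase (1.64 ± 0.24), and Tbc1d4, which holds GLUT4 inside the cell (-1.25 ± 0.20). In the pentose phosphate and hexosamine list 2 of 18 rose, among them Akr1b3, aldose reductase (1.33 ± 0.19), and 2 fell, Tkt, transketolase (-0.94 ± 0.19), and Gfpt2 (-0.84 ± 0.20). Of 16 hypoxia-inducible genes outside glycolysis, P4ha1, a collagen prolyl hydroxylase, rose (1.13 ± 0.22), Kdm3a fell (-0.56 ± 0.16), and the median was 0.05. The counts of lower regulators and of both directions in the last 2 lists are near the shares over all genes. The genes named from these 4 lists had an adjusted p of 0.0368 or less.

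Other transcripts differed between the same libraries. Acta1, skeletal alpha-actin, stood at 11.3 to 17.4 CPM in WC and at 617 to 686 CPM in WA, and Nppa, atrial natriuretic peptide, at 48.0 to 114 CPM and at 604 to 1222 CPM. Nppb, the second natriuretic peptide, stood at 20.6 to 53.3 CPM in WC and 286 to 474 CPM in WA, and Myh7, beta myosin heavy chain, at 591 to 870 CPM and 985 to 1571 CPM. The 10 heart muscle markers had a median log2 difference of 0.70, all 10 were positive and 4 passed. All 7 red cell genes were lower in WA, with a summed level of 2960 to 7380 CPM in WC and 124 to 496 CPM in WA, 3 of 6 neutrophil genes were lower and 4 of 9 fibroblast genes higher. The summed adipocyte markers stood at 0.728 to 1.28 CPM in WC. In WA they stood at 4.82, 0.938 and 0 CPM (Ctrl replicates 2 and 3, AngII replicate 3). All 4 tested adipocyte genes had a positive difference, with a median of 1.03, and 0 passed. Adipoq, one of them, stood at or below 0.405 CPM in these 6 libraries. In bulk tissue, fewer cells of a type and less RNA per cell cannot be told apart, and the part that these transcripts or cells have in the differences of the 35 genes was not tested.

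Each gene's log2 CPM was also taken relative to the mean log2 CPM of the 10 heart muscle markers in the same library. This measure was added after the data were seen and is given as a description. The markers did not move alike. Actc1 stood at 637 to 920 CPM in WC and at 2733 to 4479 CPM in WA, while Myh6, Tnni3 and Ryr2 overlapped between the groups. Whether other markers would change the signs below was not tested. On this scale 2 of the 35 genes had all WA values above all WC values, 14 had all WA values below and 19 overlapped. The shares over all genes were not computed on it. The marker mean itself stood at 10.73, 10.65 and 10.67 in the WC libraries and at 11.4, 11.68 and 11.36 in the WA libraries. A gene with equal CPM in both groups is therefore lower in WA on this scale. Slc16a1 and Pdha1 kept all 3 WA values above all 3 WC values, with differences of 0.79 and 0.52. Tpi1, Pgk1, Pygb, Pgam1, Pdhb and Eno3 were still positive, at 0.31, 0.60, 0.32, 0.18, 0.16 and 0.12, with groups that overlapped. Ldhb and Pdk1 stood at 0.01, Pfkm at -0.04 and Pgam2 at -0.09. Pfkp, called higher in WA, turned to -0.19 with every WA value below every WC value. Pfkfb1 stood at -2.77, and Eno1, Gapdh and Slc2a4 lay at -0.78, -0.84 and -0.47 with every WA value below every WC value. With the reads of Gapdh-ps15 added to Gapdh, its difference was -0.50 and the groups overlapped.

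**Figure D4:**
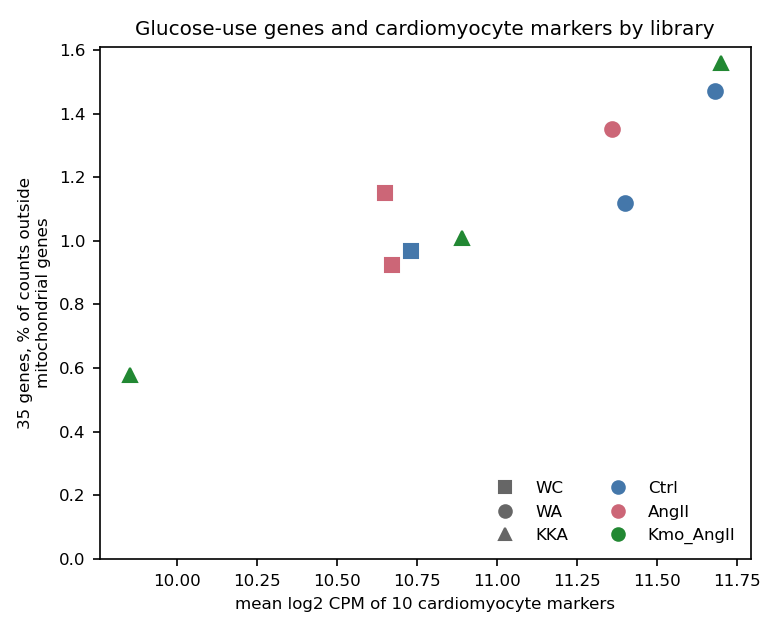
Share of counts outside mitochondrial genes that the 35 genes took (vertical axis, %) against the mean log2 CPM of 10 heart muscle markers (horizontal axis), 1 point per library, with shape for title prefix and colour for treatment label. The share ran from 0.578% in Kmo_AngII replicate 3, which had the lowest marker level of 9.85, to 1.56% in Kmo_AngII replicate 1, which had the highest, 11.70.

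When all 9 libraries were fitted together, the comparison of WA with WC gave nearly the same differences and no call, 0% of the 19091 genes. Pfkfb1 had -1.99 ± 0.40 (adjusted p = 0.201), Slc16a1 1.59 ± 0.63 (adjusted p = 0.245) and Pgam1 1.02 ± 0.29 (adjusted p = 0.224). At an unadjusted p under 0.05, 11 of the 35 genes were counted, against 18.0% of all genes. At an adjusted p under 0.05, DESeq2 called 2 of the 35 and limma-voom none. The common dispersion, a summary over all genes of the spread between libraries, was 0.156 with 9 libraries and 0.088 with 6. The tests themselves used a spread that varies with the level of a gene and from gene to gene. The KKA libraries differed widely among themselves. Slc16a1 stood at 124, 26.3 and 14.4 CPM in Kmo_AngII replicates 1, 2 and 3, Pdha1 at 579.1, 187.4 and 113.0 CPM, and Eno3 at 1090, 316 and 162 CPM. Replicate 1 lay with or above the WA libraries for these genes, and replicates 2 and 3 lay with or below the WC libraries. Acta1 had the same order, with 633, 39.6 and 13.0 CPM. Without Kmo_AngII replicate 1, 10 of the 35 genes passed in WA against WC, against 7.98% of all genes, among them Slc16a1 (adjusted p = 0.0105) and Pfkfb1 (adjusted p = 0.00681).

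Against both title groups, KKA gave no call among the 35 genes or among all genes (0% in each comparison, edgeR). Against WA, 3 of the 35 genes had an unadjusted p under 0.05, near the 7.05% of all genes, and DESeq2 and limma-voom called none at an adjusted p under 0.05. Pfkfb1 had the smallest p and the highest difference (1.29 ± 0.40, adjusted p = 0.649), and Pdha1 had the lowest difference (-0.70 ± 0.51, adjusted p = 0.753). Without Kmo_AngII replicate 1, 12 of the 35 genes passed, 10 lower and 2 higher in KKA, against 8.66% of all genes, 4.63% lower and 4.02% higher. Pdha1 was then at -1.66 (adjusted p = 0.0165) and Pfkfb1 at 1.65 (adjusted p = 0.0122). Other omissions brought them nearer to 0, Pfkfb1 to 0.74 without Kmo_AngII replicate 2 and Pdha1 to -0.31 without Kmo_AngII replicate 3. Against WC, 1 of the 35 had an unadjusted p under 0.05, against 3.51% of all genes, again with no adjusted call by DESeq2 or limma-voom. Pfkfb2 stood at 70.7, 62.0 and 41.2 CPM in KKA and at 72.2 to 128 CPM in WC, below it in all 3 libraries (-0.82 ± 0.30, adjusted p = 0.995). Slc16a1 had the highest difference from WC, 1.03 ± 0.62 (adjusted p = 0.995), and it was -0.40 without Kmo_AngII replicate 1 and 1.49 without Kmo_AngII replicate 3. Groups that did not overlap were found for 1 of the 35 genes against WA, against 8.18% of all genes, and for 2 against WC, Pfkfb2 and Pfkp, against 7.59%.

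The treatment labels were taken as given. Kmo_AngII replicate 1 lay with the WA libraries for several of the 35 genes, and whether any library carries another's label was not tested, which bears on every value by treatment label. By that label, angiotensin II hearts had 0 of the 35 genes called against Ctrl, as had all 19091 genes (0%, edgeR). At an unadjusted p under 0.05 stood 4 of the 35, against 5.25% of all genes, and at an adjusted p under 0.05 DESeq2 and limma-voom called none of them. Pdk2 had the smallest p. It stood at 206, 298 and 305 CPM in Ctrl and at 123, 155 and 153 CPM in AngII, lower in every AngII library (log2 difference -0.91 ± 0.30, adjusted p = 0.891). The same order within each title prefix follows from this and is no further check. Its values were 123 and 155 against 206 CPM in WC and 153 against 298 and 305 CPM in WA. With the prefix as a covariate the difference was -0.78 and did not pass either. Hk1 stood at 60.4, 86.7 and 113 CPM in Ctrl and at 50.4, 57.7 and 53.8 CPM in AngII (-0.68 ± 0.27, adjusted p = 0.891).

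Pfkfb2 was the only one of the 35 genes with all 3 AngII libraries above all 3 Ctrl libraries, against 6.44% of all genes. It stood at 72.2, 86.2 and 65.4 CPM in Ctrl and at 128, 106 and 112 CPM in AngII (0.63 ± 0.25, adjusted p = 0.891). The same order within both prefixes follows from this and adds no support. Pfkfb4 had the highest difference (1.05 ± 0.47, adjusted p = 0.891, and 0.67 without Ctrl replicate 1), from 1.13, 3.86 and 3.35 CPM in Ctrl and 7.61, 5.84 and 3.81 CPM in AngII. Its difference lay in the WC libraries, at 7.61 and 5.84 against 1.13 CPM, while in WA the AngII value of 3.81 lay between both Ctrl values. The AngII libraries all lay below Ctrl for 5 genes, Hk1, Gpi1, Aldoc, Pdk2 and Pygm, against 5.74% of all genes. Aldoc had the lowest difference (-1.02 ± 0.76, adjusted p = 0.905) at levels under 1 CPM. Of the 35 genes, 29 had a negative difference, with a median of -0.34, but with the total count as the only scaling 29 were positive and the median over all genes was 0.67. Ctrl holds 2 WA libraries and AngII 1: a covariate for the prefix gave the 35 genes a median of -0.14 with 9 positive, and omitting Ctrl replicate 3 gave -0.08 with 13 positive.

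In Kmo_AngII hearts, Pfkfb2 stood lower than in AngII hearts in all 3 libraries, at 70.7, 62.0 and 41.2 CPM against 128, 106 and 112 CPM. The log2 difference was -0.99 ± 0.25 with an unadjusted p of 0.00292, the only one of the 35 under 0.05, against 2.16% of all genes, and an adjusted p of 0.9998. No gene of the 19091 was called by edgeR (0%), DESeq2 and limma-voom called none of the 35 at an adjusted p under 0.05, and 6.17% of all genes had groups that did not overlap. Without Kmo_AngII replicate 3 the difference of Pfkfb2 was -0.80, and none of the 35 was called. Eno2 had the highest difference (0.62 ± 0.36). Against Ctrl, 0 of the 35 and 0% of all genes were called, 2 of the 35 had an unadjusted p under 0.05, against 2.79% of all genes, and DESeq2 and limma-voom made no adjusted call. The 2 genes were Pfkfb4, at 3.93, 8.14 and 6.41 CPM against 1.13 to 3.86 CPM (1.15 ± 0.47), and Pdk2, at 181, 196 and 114 CPM against 206 to 305 CPM (-0.72 ± 0.30), both with an adjusted p of 0.998. Neither pair of groups overlapped, as for 6.77% of all genes. The comparisons share their Ctrl or AngII libraries, so they are not separate evidence. The letters Kmo and KKA mark the same libraries and cannot be told apart.

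Isozyme balance was measured as the log2 ratio of the counts of 2 genes within a library, which library scaling does not alter, for 17 pairs. With 3 libraries a group the smallest exact two-sided permutation p is 0.1, so no ratio could pass, and the adjusted p in WA against WC was 0.340 for each pair named here. Of the 17 pairs, only Eno1/Eno3, Eno2/Eno3, Pfkl/Pfkm, Slc16a3/Slc16a1 and Pfkfb1/Pfkfb2 had WA and WC groups that did not overlap. A single ratio separates in this way with a probability of 0.1 when labels are exchanged at random. Between the same libraries, however, 16.5% of all 19091 genes lay wholly higher in WA and 17.2% wholly lower. So these separated ratios are not shown to be more frequent than separation among genes at large. The 2 enolase pairs also share Eno3. The enolase ratios lay further toward the muscle form in WA. The Eno1 to Eno3 ratio was -2.10, -2.51 and -2.02 in WC and -2.88, -2.99 and -3.47 in WA, a difference of -0.90. The Eno2 to Eno3 ratio differed by -1.39. Phosphofructokinase lay the same way, with a Pfkl to Pfkm ratio of -2.51 ± 0.20 (SD, n = 3) in WC and -3.02 ± 0.17 in WA by the exact test named above.

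The lactate carriers had the widest difference between WA and WC among the pairs named here. The Slc16a3 to Slc16a1 ratio was -3.70, -3.06 and -3.59 in WC and -5.48, -5.43 and -5.00 in WA, lower by 1.85 on the log2 scale with no overlap. The Pfkfb1 to Pfkfb2 ratio was -1.53, -2.03 and -1.40 in WC and -3.56, -2.73 and -3.98 in WA, a difference of -1.77. In the KKA libraries both ratios spread widely. Kmo_AngII replicate 1 had -6.08 and -3.05, near or beyond WA, and replicates 2 and 3 had -2.25 and -2.35 for the lactate carriers and -0.95 and -1.15 for the PFKFB pair, beyond WC.

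By treatment label, 2 of the 17 ratios had groups that did not overlap between AngII and Ctrl. A single ratio separates completely with a probability of 0.1 when labels are exchanged at random, so 2 of 17 is near that share. Hk2 to Hk1 was 0.29, 0.10 and 0.12 in Ctrl and 0.46, 0.53 and 0.94 in AngII (difference 0.47, exact permutation p = 0.1, adjusted 0.773). Since the groups did not overlap, the same order within both prefixes follows and adds no support. The Kmo_AngII values of 0.86, 0.27 and 0.02 spanned both groups. Pygl to Pygm differed by 1.12, and by 0.70 without AngII replicate 1. Pfkfb4 to Pfkfb2 was higher in Kmo_AngII, at -4.17, -2.93 and -2.68, than in Ctrl, at -5.98, -4.48 and -4.28 (difference 1.65, exact permutation p = 0.1, adjusted 0.956), and than in WA (difference 1.28). In each of these comparisons it was the only one of the 17 pairs without overlap. The aldolase ratio stayed far to the side of Aldoa in every library, between -13.82 and -9.51, and overlapped in every comparison.

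**Figure D5:**
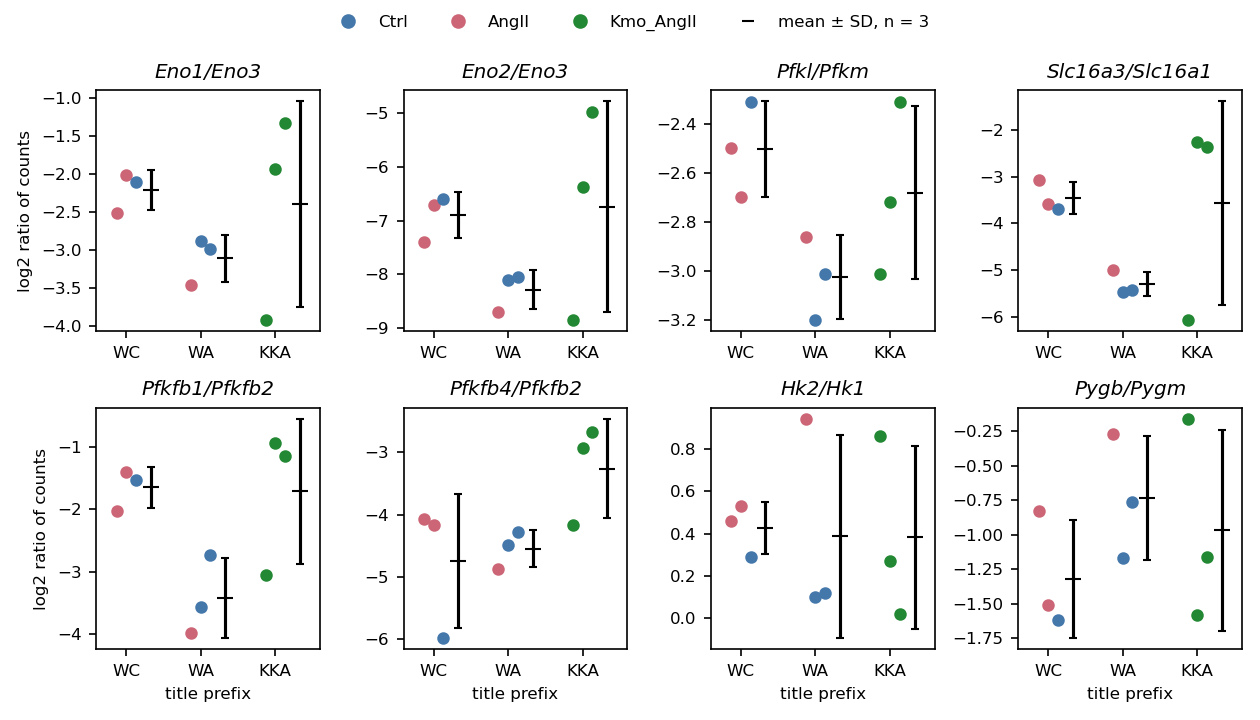
Log2 ratio of the counts of 2 genes in each library for 8 pairs (points, coloured by treatment label), grouped by title prefix, with the mean and standard deviation of 3 libraries. In the first 5 panels the WA libraries lie below all WC libraries, Hk2 to Hk1 is higher in AngII than in Ctrl points, and Kmo_AngII replicate 1 has the lowest KKA value in the first 6 panels.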

How the data were processed

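Poly(A) RNA of 9 mouse heart libraries was sequenced. The deposited table holds whole-number counts per Ensembl gene, 1 column per library, per the file headers, unscaled for depth or length. The tools named are HISAT2 2.0, StringTie 1.3.0 and Bowtie 0.12.2 and the build is mm8, per the submitters' processing notes. The sources used here give neither their roles nor the counting, annotation and strand setting, so overlapping, antisense and near-identical genes may share reads. The labels' protocol mentions an adipose type although the source is heart.

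Groups followed the treatment label and, separately, the title letters. Replicates were numbered in sample order and pair nothing. Every pair of libraries differed by more than counting noise (lowest chi-square per degree of freedom 56.6). Symbols matched 55141 of 55401 identifiers. Tests used edgeR 4.0.16 in R 4.3.3 (TMM, filterByExpr, robust quasi-likelihood F test, Benjamini-Hochberg over all genes, call at an adjusted p under 0.05), with 9 libraries and, for WA and WC, with 6. Differences are the first group minus the second. The standard error restates the test. The fits were also run on simulated data with no outlying library and a single fixed spread, lower than the common dispersion of the 9-library fits. That run does not show their power in these libraries. CPM uses TMM library sizes, and ratios had 0.5 counts added. Exon lengths come from GENCODE M21, another build than mm8, and serve only for CPM per kb. The 3 libraries a group limit the precision.

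The members, lists and rules were chosen with earlier results of these data known. Genes with values per library were those called in a comparison, those with the smallest p or the highest or lowest difference, and pairs whose ratio did not overlap, and of other lists up to 4 by p. One gene that this rule names is not reported here. Values of Gyg, Phka2, Phkg2 and Pdk4 and of the other members and markers were added after their values were seen. Alternatives were DESeq2 size factors, library size only, no filter, 1 CPM in 3 libraries, DESeq2 1.42.0, limma-voom (limma 3.58.1), dropping mitochondrial, haemoglobin and Nppa genes, omitting each library, only the groups compared, and the other grouping as a covariate.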

Additional observations from a re-analysis of the deposited data

How the results depend on the processing

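For WA against WC in 6 libraries, the 14 calls among the 35 genes were also made with DESeq2 size factors, no count filter, a 1 CPM filter, limma-voom and without mitochondrial, haemoglobin and Nppa genes. DESeq2 called 16, adding Hk2 and Pkm. Hk1, Pdk2 and Pygm gained a call without AngII replicate 3, and Pkm and Pfkfb3 without AngII replicate 1. The count was 1 with library size only and 11 with treatment as a covariate (without Pfkp, Pgam2 and Ldhb), and it ran from 3 to 15 when 1 library was left out. With 9 libraries the count was 2 by DESeq2 and 0 to 10 when 1 library was left out, and for KKA against WA it was 0 to 12. The other 4 comparisons had 0 calls among the 35 under every alternative run. The covariate could be fitted only for AngII against Ctrl and WA against WC, since Kmo_AngII and KKA are the same libraries.

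Some differences changed sign, and not only those near 0. Among those that did, the main values in AngII against Ctrl were -0.64 for Pygm and -0.39 for Gpi1. Pfkfb4 in WA against WC had -0.40, and Slc16a1 in KKA against WC had 1.03. With library size only, AngII against Ctrl gave 0.02 for Pygm and 0.27 for Gpi1, and WA against WC gave -0.02 for Pfkl, -0.39 for Aldoc, -0.30 for Eno1, -0.30 for Slc2a1 and -0.05 for Gys1. With treatment as a covariate, WA against WC gave 0.02 for Pfkfb2, 0.38 for Pfkfb4, -0.60 for Aldoc and -0.05 for Slc2a1, and limma-voom gave -0.50 for Aldoc. Without 1 library, WA against WC reached 0.01 for Pfkfb2, 0.10 for Pfkfb4, 0.00 for Slc16a3 (AngII replicate 1), -0.62 for Aldoc (Ctrl replicate 2), 0.20 (Ctrl replicate 1) and 0.03 (AngII replicate 3) for Gapdh, -0.04 (Ctrl replicate 3) and -0.01 (AngII replicate 2) for Eno1, and -0.08 and -0.19 for Slc2a1 (the same 2 libraries). The opposite ends of these ranges were -0.86 for Pfkfb4, 0.62 for Aldoc, -0.22 for Gapdh, 0.09 for Eno1 and -0.47 for Slc16a3. Slc16a1 in KKA against WC ran from -0.40 without Kmo_AngII replicate 1 to 1.49 without Kmo_AngII replicate 3. The cause was not tested. The 9 named ratios kept their sign with 5 counts added and without each library. No paired analysis was possible because replicate numbers were given in sample order. Aldoc, Pygl, Slc16a3, Eno2 and Pfkfb4 have few counts, which limits their precision.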
